A study of Mus musculus with 7 samples.

Results

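The 29 genes described here encode proteins of the lysosome: the proteases *Ctsa*, *Ctsb*, *Ctsd*, *Ctsh*, *Ctsl*, *Ctss*, *Ctsz*, *Lgmn* and *Tpp1*, the membrane proteins *Lamp1*, *Lamp2*, *Cd63*, *Cd68* and *Scarb2*, the sugar-cleaving enzymes *Hexa*, *Gusb*, *Man2b1*, *Neu1*, *Gaa* and *Glb1*, the lipid-handling proteins *Lipa*, *Asah1*, *Psap*, *Npc1*, *Npc2* and *Plbd2*, the granulin precursor *Grn*, the cation channel *Mcoln1* and the transcription factor *Tfeb*. They were matched by gene name among the 55536 genes in the count tables. Single microglial cells (SC) and single nuclei (SN) came from the hippocampus of 10-month-old mice. The 4 groups were wild-type (WT) mice given vehicle water (WT-veh), WT mice given PMX205 (WT-PMX), Arctic48 mice given vehicle water (Arc-veh) and Arctic48 mice given PMX205 (Arc-PMX). Arctic48 (Arc) mice are hemizygous for a human APP transgene with the Swedish, Indiana and Arctic mutations on the C57BL6/J background, and they form fibrillar amyloid plaques. The transgene has no row of its own in the mouse gene tables. PMX205 is a cyclic hexapeptide that blocks the C5a receptor C5aR1, given at 20 µg/ml in drinking water for 12 weeks to mice housed singly, controls included. Each of the 24 SC wells held cells pulled down with anti-CD11b beads from 1 hemisphere's hippocampus of several mice, pooled within sex and group, and each of the 24 SN wells held nuclei from 1 mouse. Each group had 3 wells from females (F1 to F3) and 3 from males (M1 to M3) in each preparation. The SC suspension was kept in actinomycin D, anisomycin and triptolide, which block transcription and translation.

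Lysosomes are acidic organelles in which acid hydrolases break down proteins, lipids and sugars that arrive by endocytosis, phagocytosis and autophagy. Heavily glycosylated membrane proteins line the organelle, and cholesterol set free in the lumen leaves it by way of Npc2 and Npc1. TFEB, a transcription factor held in the cytoplasm by MTORC1, binds an E-box in the promoters of many lysosomal genes. Microglia, the resident phagocytes of the brain, take up debris and amyloid and degrade them in lysosomes.

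The core of that E-box, CACGTG, is shown for the members that carry it near their start, because these sequences group the members by a feature that no expression value was used to find. CACGTG reads the same on both strands, so a match counts for both. RefSeq promoter windows (GRCm38.p6, 250 bases before to 50 after each gene's start) were found for 24 of the 29 members, and not for *Ctsb*, *Ctsh*, *Npc1*, *Asah1* and *Plbd2*. The core was in the window of 8 of those 24 members (33.3%) and of 8.09% of all 27025 genes in the table. The longer form TCACGTGA, which contains the core, was in 3 members (12.5%), *Ctsa*, *Ctsd* and *Mcoln1*, and in 1.12% of all genes. That E-box is known from promoters of lysosomal genes, so its larger share among the members is no independent result. A match is a description of the letters in a window and was not tested for binding. In the sequences below, each read 5′ to 3′ on the strand given, capitals mark the matched letters.
Ctsa, chr2:164833749-164833778, plus strand: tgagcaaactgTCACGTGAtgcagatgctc
Ctsd, chr7:142387908-142387937, minus strand: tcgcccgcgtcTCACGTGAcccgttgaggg
Mcoln1, chr8:3500462-3500491, plus strand: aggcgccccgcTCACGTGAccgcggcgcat
Lamp1, chr8:13159088-13159117, plus strand: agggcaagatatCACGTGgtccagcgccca
Lgmn, chr12:102439124-102439153, minus strand: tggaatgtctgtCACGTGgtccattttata
Glb1, chr9:114401018-114401047, plus strand: ctgcttctgagtCACGTGgcctacagaggc
Gaa, chr11:119267811-119267840, plus strand: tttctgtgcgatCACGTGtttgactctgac
Ctsl, chr13:64370739-64370768, minus strand: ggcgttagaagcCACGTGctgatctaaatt
Each window is placed on a RefSeq transcript start, and some genes have more than 1 window, so a printed match can lie inside the span of the gene model in the files' annotation, as those of *Ctsa*, *Ctsd*, *Mcoln1*, *Lgmn* and *Ctsl* do. Counted from the start of their own RefSeq window's transcript, the CACGTG cores of these matches began 12 bases before it in *Ctsa*, 98 in *Ctsd*, 45 in *Mcoln1*, 61 in *Lamp1*, 49 in *Lgmn*, 48 in *Glb1*, 140 in *Gaa* and 236 in *Ctsl*. *Ctsa*, *Ctsd*, *Mcoln1* and *Lamp1* each held at least 1 further match that is not printed.

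Transcripts were summed for each well and cell type, and a well entered a comparison when it held at least 10 cells of the type. Levels are given as counts of the gene scaled to all transcripts of that cell type in the well (CPM, where 1000000 such transcripts make the whole). SN microglia comprised 1513 nuclei, with 21 usable wells (6 in either Arc group, 4 in WT-veh and 5 in WT-PMX) of 8008 to 273795 transcripts each. SC microglia comprised 2079 cells, with 19 usable wells (6 in Arc-PMX, 5 in Arc-veh, 5 in WT-veh and 3 in WT-PMX) of 6370 to 739135 transcripts each. The Arc groups held 694 (vehicle) and 555 (PMX205) of the microglial nuclei and the WT groups 134 and 130, and the shallowest wells of either preparation were WT wells, although the depths of WT and Arc wells overlapped. Fewer microglia in a well do not lower a CPM level, but they make the WT values coarser. Clusters had been named from marker lists, so the level of those markers is a description of the naming and no test of it. The summed microglial markers were at 12632 to 19810 CPM in SN microglia and 41.1 to 104.7 CPM in SN astrocytes. Among SC wells, WT-veh F2 stood apart from its label: the summed level of 14 plaque-associated microglial genes was 2217 CPM there, against 204 to 579 CPM in the other usable WT wells and 2158 to 8580 CPM in the Arc wells. The genotype tests of SC microglia that use that well, and the comparison of SC with SN microglia, are given with and without it, for the other lysosomal genes too.

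In nuclei, most members took a larger share of all transcripts in microglia than in the other brain cells, and a few had their highest share elsewhere. Nuclei differed in depth, with 1958718 transcripts over 1513 microglial nuclei and 274740756 over 27506 neuronal nuclei. Levels per nucleus were not compared. Cathepsin S (*Ctss*), an elastinolytic cysteine protease, had a level of 514 ± 138 CPM (SD, n = 21 wells) in microglia and 0.32 ± 0.60 CPM (SD, n = 24 wells) in astrocytes. Cathepsin H (*Ctsh*), an aminopeptidase of the same family, had 186 ± 94.1 CPM (SD, n = 21) in microglia and 0.13 ± 0.12 CPM (SD, n = 24) in neurons. Among the smaller types *Ctsh* reached 21.2% of its microglial level in endothelial nuclei, 17.4% in fibroblasts and 8.6% in ependymal or choroid plexus nuclei, while *Ctss* was at most 1.6% of its microglial level in the other 8 types compared, which leave out T cells (1 usable well, with 2 *Ctss* transcripts). The aspartic protease cathepsin D (*Ctsd*) had 381 ± 206 CPM (SD, n = 21) in microglia, and 18.6 ± 10.4 CPM (SD, n = 24) in astrocytes. Legumain (*Lgmn*), the asparaginyl endopeptidase that processes other cathepsins, had 1004 ± 262 CPM (SD, n = 21) in microglia against 57.4 ± 20.3 CPM (SD, n = 24) in oligodendrocytes. Cathepsin B (*Ctsb*), a cysteine protease, was less confined, with 274 ± 180 CPM (SD, n = 21) in microglia and 44.0 ± 19.7 CPM (SD, n = 24) in astrocytes.

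Of the 29 members, 22 had enough counts to be tested across microglia, neurons, astrocytes, oligodendrocytes and oligodendrocyte precursors (OPCs) with the well as a block. Against the mean of the other types, 20 of those 22 were higher in microglia (edgeR quasi-likelihood test, Benjamini-Hochberg adjusted p under 0.05), where 33.7% of all 6947 genes tested were higher. The low-count filter admitted a gene on its level in a single type. *Ctss* and *Ctsh*, at most 0.6% of their microglial level in the other types of this test, entered through microglia. The count of 20 is therefore partly set by the filter. The median log2 difference was 1.56 over the tested members and -0.14 over all genes tested. Differences of those that passed ran from 0.64 for *Mcoln1* to 7.85 ± 0.18 (SE) for *Ctsh* and 8.49 ± 0.14 for *Ctss*, with 5.03 ± 0.12 for *Ctsd*, 4.51 ± 0.08 for *Lgmn* and 3.15 for *Ctsb* between them. The membrane proteins *Lamp2*, *Scarb2* and *Lamp1* were closer to the other types, with log2 differences of 1.15, 1.22 and 0.95. Not all membrane proteins were: *Cd68* was at 5.7% of its microglial level in astrocytes, 4.5% in oligodendrocytes, 2.7% in OPCs and 2.1% in neurons. *Gaa*, which degrades glycogen, had a log2 difference of -0.38 (adjusted p = 0.0611) and *Npc1* one of 0.04 (adjusted p = 0.769), and neither passed.

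Several members had another leading cell type. *Npc1*, the membrane transporter that exports cholesterol, had 131 ± 43.4 CPM (SD, n = 24) in oligodendrocytes, 87.0 ± 28.0 CPM (SD, n = 24) in OPCs, 77.3 ± 44.0 CPM (SD, n = 21) in microglia and 60.6 ± 17.7 CPM (SD, n = 24) in astrocytes. *Tfeb* had 194 ± 47.9 CPM (SD, n = 24) in oligodendrocytes, 148 ± 58.8 CPM (SD, n = 21) in microglia and 6.77 ± 1.73 CPM (SD, n = 24) in neurons. Microglia stood below oligodendrocytes by -0.88 for *Npc1*, -0.75 for *Tfeb* and -0.40 (adjusted p = 0.0202) for *Lipa*, the acid lipase (log2, edgeR). Oligodendrocytes and microglia overlapped within their SDs for all 3, although the differences within wells passed the test. *Cd63*, a tetraspanin of late endosomes and lysosomes, had 42.6 ± 14.2 CPM (SD, n = 24) in astrocytes and 25.9 ± 23.7 CPM (SD, n = 21) in microglia, and the log2 difference was -0.75. *Plbd2*, a phospholipase B-like protein, had its highest named type in astrocytes, at 35.9 ± 16.4 CPM (SD, n = 24).

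**Figure D1:**
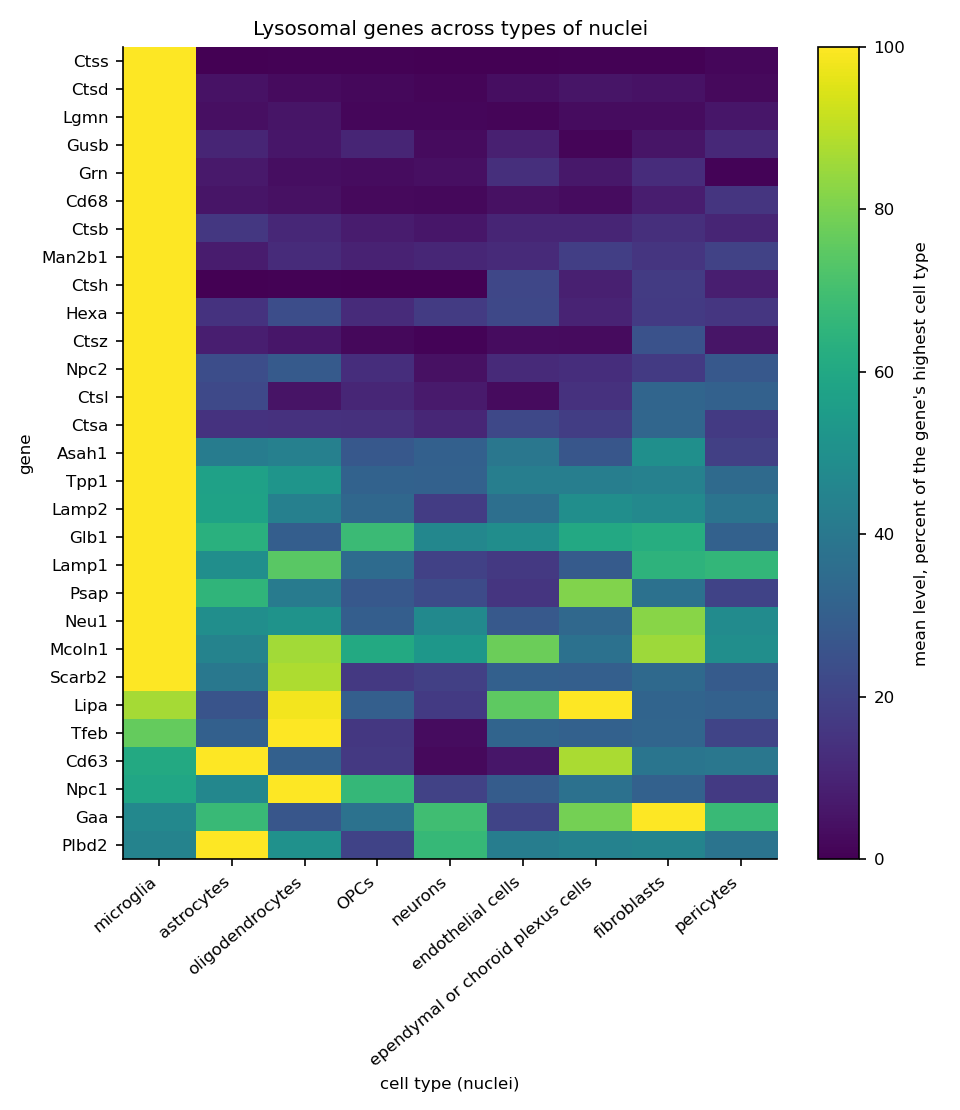
Mean level of each of the 29 genes in 9 cell types of nuclei, as a percent of the gene's highest type (colour scale from 0 to 100%); rows are genes and columns are cell types. *Ctss*, *Ctsd* and *Lgmn* are filled almost only in the microglia column, while *Npc1* and *Tfeb* peak in oligodendrocytes and *Cd63* in astrocytes.

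In SN microglia of vehicle-treated mice, which ask what the Arc genotype alone does, 3 lysosomal genes were higher in Arc than in WT: *Ctsb*, *Ctsd* and *Lamp2*. *Ctsb* (chr14:63122462-63145923, mm10) was at 0, 71.0 and 213 CPM in WT-veh (lowest, median and highest of 4 wells) and at 284, 408 and 611 CPM in Arc-veh (6 wells). *Ctsd* (chr7:142375911-142388038) was at 30.4, 219 and 260 CPM in WT-veh and at 339, 543 and 835 CPM in Arc-veh. *Lamp2* (chrX:38401357-38456454), which encodes a major glycoprotein of the lysosomal membrane and a receptor of chaperone-mediated autophagy, was at 0, 122 and 166 CPM in WT-veh and at 197, 304 and 396 CPM in Arc-veh. The WT-veh and Arc-veh ranges were apart for each of these genes, on 13 and 406 transcripts in all for *Ctsb*, 19 and 512 for *Ctsd* and 13 and 278 for *Lamp2*. The log2 fold changes were 1.88 ± 0.45 (SE, 3.68-fold, adjusted p = 0.00411) for *Ctsb*, 1.71 ± 0.42 (3.27-fold, adjusted p = 0.00505) for *Ctsd* and 1.39 ± 0.40 (2.61-fold, adjusted p = 0.0202) for *Lamp2*. None was called lower. The count of 3 among the 16 members with enough counts to be tested, or 18.8%, stood beside 255 of 2203 genes called in that comparison (11.6%), and the median log2 fold change was 0.36 over those 16 and 0.03 over all genes tested. The low-count filter admitted a gene on its high wells in any group, and for *Ctsb* those were mainly Arc wells.

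The other 13 tested members did not pass, and they differed in direction. *Ctsz*, a carboxypeptidase, *Gusb*, the lysosomal beta-glucuronidase, and *Grn*, whose granulin peptides act in the lysosome, had log2 values of 1.31 ± 0.60 (adjusted p = 0.18), 1.21 ± 0.57 (adjusted p = 0.198) and 1.35 ± 0.75 (adjusted p = 0.298). *Ctss* was at 395, 484 and 549 CPM in WT-veh and 426, 538 and 762 CPM in Arc-veh, and these ranges overlapped (log2 0.28 ± 0.26, adjusted p = 0.614). *Tfeb* was at 91.2, 157 and 237 CPM in WT-veh and 89.3, 148 and 257 CPM in Arc-veh (log2 0.07 ± 0.41, adjusted p = 0.964). The glycosidases *Hexa*, a beta-hexosaminidase subunit, and *Man2b1*, an alpha-mannosidase, and the acid ceramidase *Asah1* had log2 values of 0.40 ± 0.42 (adjusted p = 0.651), -0.23 ± 0.39 (adjusted p = 0.818) and 0.24 ± 0.42 (adjusted p = 0.821). The lowest, median and highest *Hexa* levels were 61.0, 77.5 and 260 CPM in WT-veh and 123, 189 and 258 CPM in Arc-veh, and the ranges overlapped. *Psap*, the precursor of the saposins that present sphingolipids to hydrolases, had -0.39 ± 0.42 (adjusted p = 0.663). *Lgmn* had a log2 value of -0.47 ± 0.17 (adjusted p = 0.0732), from 853, 1190 and 1705 CPM in WT-veh to 757, 843 and 972 CPM in Arc-veh.

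The remaining 13 members had too few transcripts in these wells for a test and are given as levels. *Npc1* was at 0, 38.9 and 61.0 CPM in WT-veh and at 72.8, 87.2 and 126 CPM in Arc-veh, with no overlap, on 4 and 87 transcripts in all. *Cd68*, a macrophage glycoprotein of late endosomes, was at 0, 11.8 and 61.0 CPM in WT-veh and at 0, 74.8 and 94.6 CPM in Arc-veh. *Cd63* had 0 transcripts in the WT-veh wells, which allows a level of up to 28.0 CPM over the group (3 counts, counting error only), and 14.7, 36.2 and 78.8 CPM in Arc-veh. For the rest of the untested members (*Ctsl*, *Gaa*, *Glb1*, *Lamp1*, *Lipa*, *Mcoln1*, *Neu1*, *Npc2*, *Plbd2* and *Tpp1*) the WT-veh groups rested on 1 to 8 transcripts each.

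With PMX205 in both genotypes, *Ctsb* again was higher in Arc microglial nuclei and was the single member called. It stood at 59.3, 93.4 and 206.9 CPM in WT-PMX (5 wells) and 207.3, 402 and 514 CPM in Arc-PMX (6 wells). The highest WT-PMX well and the lowest Arc-PMX well were nearly level, so the ranges met. The log2 fold change was 1.62 ± 0.41 (SE, 3.08-fold, adjusted p = 0.00693). That is 1 of 16 tested members, or 6.25%, beside 11.8% of all 2203 genes. *Ctsd* was at 125, 248 and 397 CPM in WT-PMX and 233, 445 and 715 CPM in Arc-PMX, and the ranges overlapped (log2 0.66, adjusted p = 0.264). *Lamp2* was at 125, 293 and 374 CPM in WT-PMX and 199, 300 and 384 CPM in Arc-PMX (log2 0.04), so the WT-PMX wells reached the Arc range that the WT-veh wells did not. The log2 difference of WT-PMX from WT-veh was 1.35 for *Lamp2* (edgeR, adjusted p = 0.64), and the test of whether PMX205 acted differently in Arc than in WT gave -1.35 (adjusted p = 0.923). *Ctss* was at 293, 652 and 749 CPM in WT-PMX and 328, 420 and 694 CPM in Arc-PMX, with overlapping ranges (log2 -0.19 ± 0.24, adjusted p = 0.716). *Lgmn* was at 948, 1224 and 1423 CPM in WT-PMX and 720, 845 and 924 CPM in Arc-PMX. All 6 Arc-PMX wells lay below all 5 WT-PMX wells for *Lgmn*, while the log2 fold change of -0.48 ± 0.17 missed the threshold (adjusted p = 0.0537).

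Averaging the genotype effect over both treatments, a contrast added after the data had been seen, gave 4 called members in SN microglia beside 19.2% of all 2203 genes. *Ctsb* was higher by 1.75 ± 0.31 (log2, SE, adjusted p = 4.67e-05), *Ctsd* by 1.18 ± 0.27 (adjusted p = 0.00141) and *Lamp2* by 0.71 ± 0.25 (adjusted p = 0.0452). *Lgmn* fell by 0.48 ± 0.12 (adjusted p = 0.00302). Endothelial markers also differed among these wells, with a summed level of 71.0, 187 and 610 CPM in WT-veh, 0, 59.3 and 90.3 CPM in WT-PMX, 185, 340 and 489 CPM in Arc-veh and 188, 335 and 500 CPM in Arc-PMX, and their part in the result was not tested. Without WT-veh M1 the adjusted p of *Ctsd* in the vehicle pair was 0.0537, and without WT-veh F1 or M1 that of *Lamp2* rose to at most 0.0826, whereas *Ctsb* passed without any single well.

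**Figure D2:**
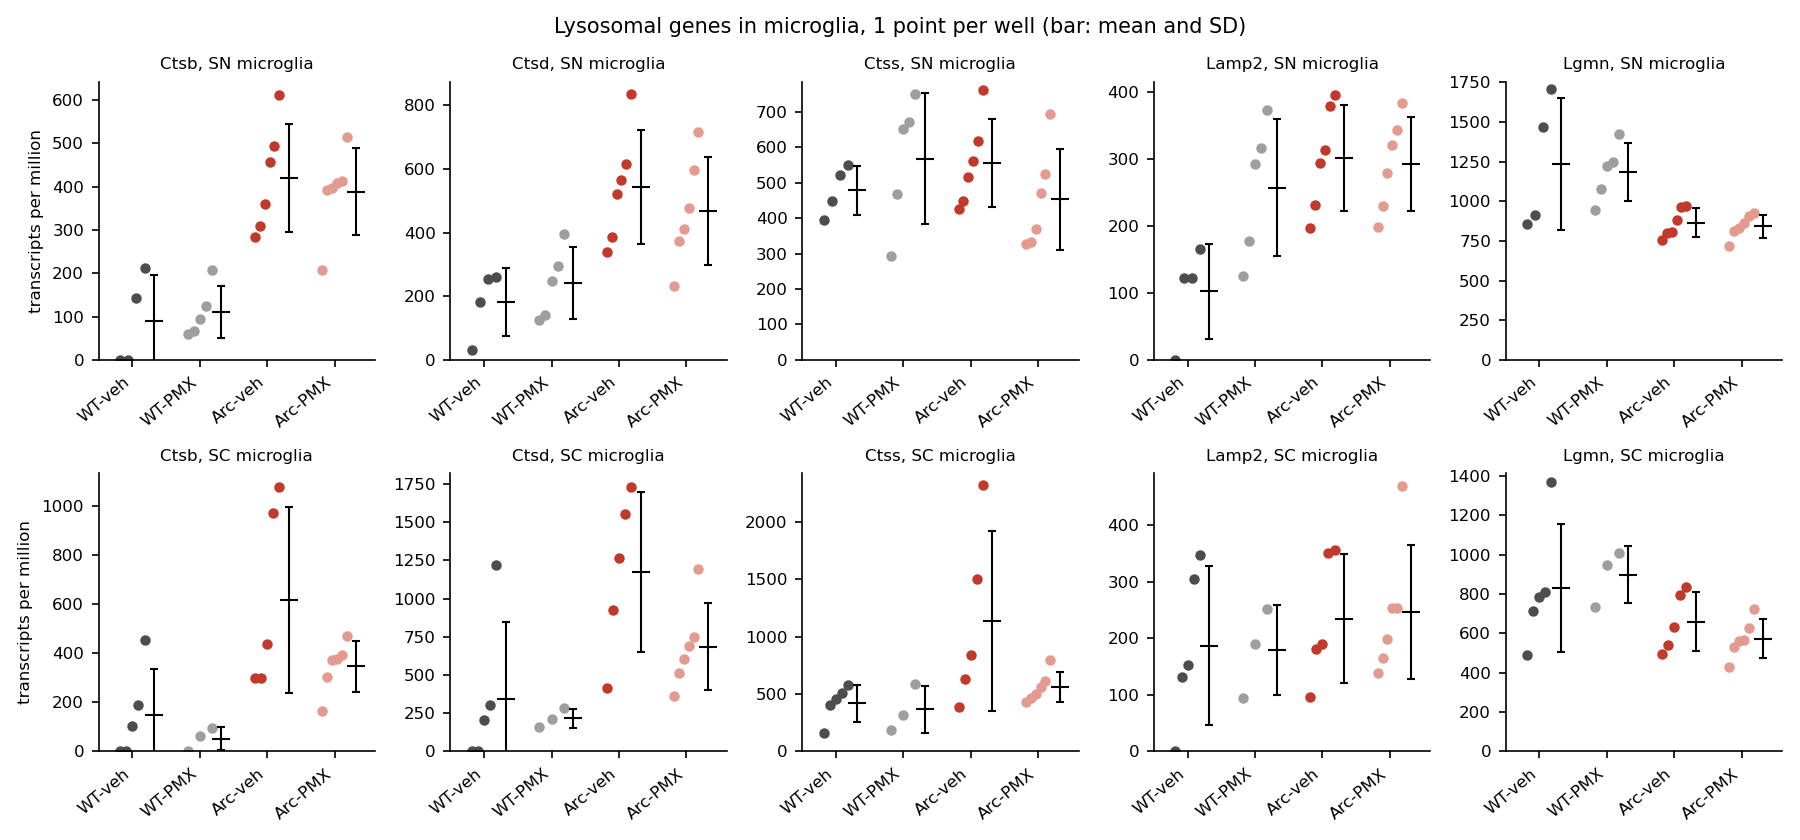
Level (CPM, linear axis from 0) of *Ctsb*, *Ctsd*, *Ctss*, *Lamp2* and *Lgmn* in every usable well of SN microglia (top row) and SC microglia (bottom row) for the 4 groups; points are wells, bars are the mean and SD. *Ctsb* is higher in Arc than in WT nuclei under both treatments, and the ranges meet under PMX205. *Lgmn* has lower medians in Arc nuclei under both treatments, with overlapping ranges under vehicle and no call in either pair. The SC Arc-veh wells spread widely, from 300 to 1080 CPM for *Ctsb*.

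SC microglia of vehicle-treated mice showed higher *Ctsb*, *Ctsd* and *Ctss* in Arc. *Ctsb* was at 0, 102 and 456 CPM in WT-veh (lowest, median and highest of 5 wells) and at 300, 437 and 1080 CPM in Arc-veh (5 wells). *Ctsd* was at 0, 204 and 1217 CPM in WT-veh and at 416, 1263 and 1727 CPM in Arc-veh. *Ctss* was at 157, 456 and 579 CPM in WT-veh and at 384, 842 and 2317 CPM in Arc-veh. The groups overlapped for all of these, and the top WT-veh value of *Ctsb* and *Ctsd* was in well F3, on few transcripts. The log2 fold changes were 2.35 ± 0.54 (SE, 5.09-fold, adjusted p = 0.0205) for *Ctsb*, 2.17 ± 0.51 (4.51-fold, adjusted p = 0.0208) for *Ctsd* and 1.61 ± 0.43 (3.05-fold, adjusted p = 0.0392) for *Ctss*. Only 7 members had enough counts for a test in these shallower wells, and the 3 called of 7 stood beside 28 of 899 genes (3.11%). Here too the low-count filter admitted *Ctsb* mainly on Arc wells. Its place among the 7 was therefore not independent of its being high in Arc. The others were *Ctsz* (log2 1.14, adjusted p = 0.253), *Lamp2* (0.93, adjusted p = 0.324), *Psap* (0.82, adjusted p = 0.522) and *Lgmn* (0.17, adjusted p = 0.821).

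With WT-veh F2 left out, the log2 fold changes were 2.74 for *Ctsb*, 2.19 for *Ctsd* and 1.86 for *Ctss*, and all 3 passed the test, beside 65 of 843 genes called (7.71%). In that fit *Ctsz* (1.59, adjusted p = 0.241), *Lamp2* (0.68, adjusted p = 0.569) and *Lgmn* (-0.07, adjusted p = 0.968) did not pass, and *Psap* was not tested. Without Arc-veh F1, WT-veh F1 or WT-veh M2, 0 of *Ctsb*, *Ctsd* and *Ctss* passed, without WT-veh M1 the number was 1, and *Ctss* also lost its call without WT-veh F3 or Arc-veh M2. Over the 6 wells whose removal ended that call the adjusted p was at most 0.135. All 3 calls were lost under a stricter cell filter. In a fit of only the groups compared those of *Ctsd* and *Ctss* were lost, and *Ctsb* had too few counts to be tested. The call of *Ctss* was also lost with a replicate block. Markers of other cells moved with the groups as well: ependymal and choroid plexus markers summed to 0, 347 and 2512 CPM in WT-veh and 0 to 120 CPM in Arc wells, and transcripts linked to ribosomal RNA to 27068, 74423 and 81839 CPM in WT-veh and 68381, 124262 and 284084 CPM in Arc-veh. Their part in the result was not tested. The 1059 SC cells of unnamed clusters had higher medians in Arc-veh than in WT-veh too (5 wells each). These were 83 and 273 CPM for *Ctsb* in WT-veh and Arc-veh, 304 and 743 CPM for *Ctsd* and 342 and 425 CPM for *Ctss*. The ranges of *Ctsd* and *Ctss* overlapped, and those cells were not tested.

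Between the PMX205 groups, *Ctsb* of SC microglia was at 0, 63.2 and 94.2 CPM in the 3 WT-PMX wells and at 166, 374 and 470 CPM in the 6 Arc-PMX wells, with no overlap. Its log2 fold change was 2.47 ± 0.67 (SE, 5.54-fold, adjusted p = 0.014), and it was the single member called of 7, beside 12% of all 899 genes. *Ctsd* was at 158, 211 and 283 CPM in WT-PMX and 365, 648 and 1192 CPM in Arc-PMX, again with no overlap, and missed the threshold (log2 1.58 ± 0.54, adjusted p = 0.052). *Lgmn* was at 735, 948 and 1011 CPM in WT-PMX and 432, 566 and 723 CPM in Arc-PMX, all Arc-PMX wells below all WT-PMX wells (log2 -0.57 ± 0.27, adjusted p = 0.178). The *Ctsb* call was lost without WT-PMX F2 or without WT-PMX M3 (adjusted p up to 0.0946), and under the stricter cell filter.

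Averaged over both treatments, the added contrast, *Ctsb* was higher in Arc SC microglia by 2.41 ± 0.43 (log2, SE, adjusted p = 0.000149), *Ctsd* by 1.88 ± 0.37 (adjusted p = 0.000536), *Ctss* by 1.23 ± 0.32 (adjusted p = 0.00653) and *Ctsz* by 1.55 ± 0.47 (adjusted p = 0.0217), beside 17.6% of 899 genes. *Lgmn* was at -0.20 (adjusted p = 0.967) in that contrast. The low-count filter had admitted *Ctsz* on its Arc-veh wells. Without WT-veh F2, in a fit chosen after seeing the data, the values were 2.60 ± 0.51 (adjusted p = 0.000531) for *Ctsb*, 1.88 ± 0.42 (adjusted p = 0.0021) for *Ctsd*, 1.37 ± 0.36 (adjusted p = 0.00836) for *Ctss* and 1.78 ± 0.56 (adjusted p = 0.0242) for *Ctsz*, beside 18.7% of 843 genes. *Lgmn* was at -0.33 (adjusted p = 0.389) in that fit.

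**Figure D3:**
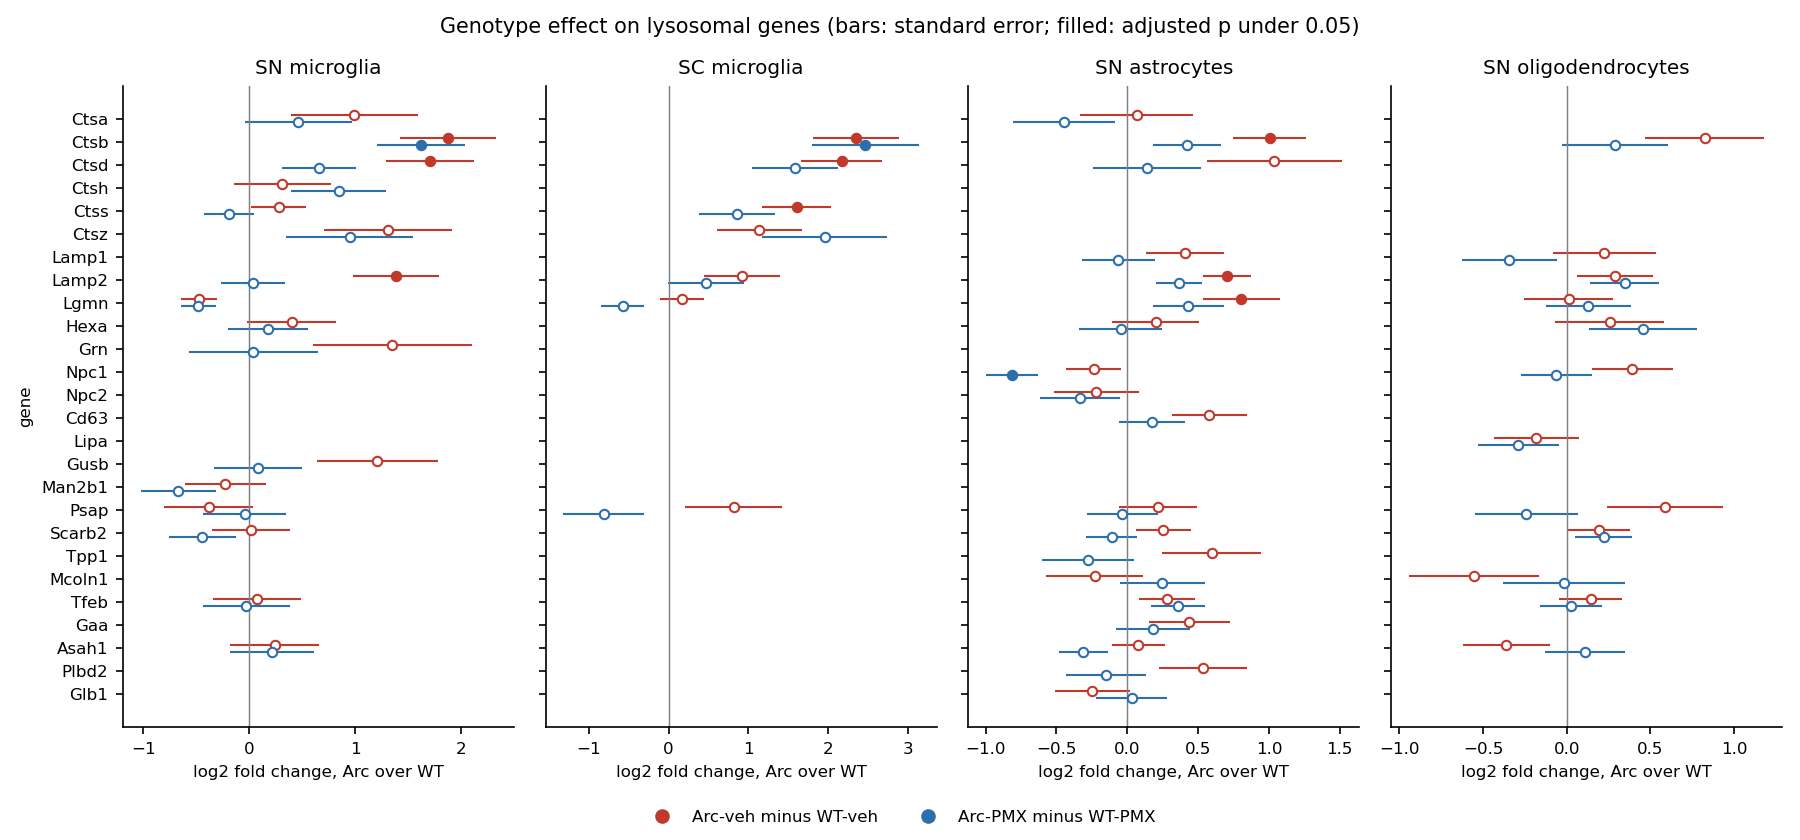
Log2 fold change of Arc over WT for each tested gene in SN microglia, SC microglia, SN astrocytes and SN oligodendrocytes, with vehicle (red) and PMX205 (blue) side by side; bars are SE, and filled points have an adjusted p under 0.05 (edgeR). *Ctsb* is filled in SN microglia and SC microglia under both treatments and in SN astrocytes under vehicle, and no point is filled in oligodendrocytes.

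The whole cells also showed where, among microglial clusters, some of the proteases were abundant. Cells had been clustered without the 29 members. Clusters SC-3 (led by *Cst3*, *Apoe* and complement C1q genes) and SC-8 (led by *Apoe*, *Spp1*, *Cst3* and *Lpl*) had *Ctsb* at 1277 and 860 CPM, against 294 to 444 CPM in the other microglial clusters. *Ctsd* was at 2165 and 1357 CPM against 475 to 726 CPM, and *Ctss* at 2496 and 1310 CPM against 445 to 792 CPM. *Ctsl*, a cysteine protease with broad specificity, was at 476 and 288 CPM against 58 to 83 CPM. By contrast, *Lamp2* (350 and 330 against 163 to 261 CPM) and *Lgmn* (943 and 712 against 521 to 754 CPM) differed less between clusters. *Ctsz* was at 497 and 301 CPM against 126 to 210 CPM, whereas *Ctsa* (230 and 178 against 146 to 205 CPM), *Ctsh* (172 and 152 against 79 to 144 CPM) and *Tpp1* (55.3 and 45.3 against 39.5 to 83.3 CPM) were closer to the other clusters or within their range. These are descriptions of pooled cells with no test.

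SC-3 and SC-8 together held 584 of 1225 Arc-veh microglia (47.7%), 75 of 573 Arc-PMX microglia (13.1%), 2 of 157 in WT-PMX (1.3%) and 3 of 124 in WT-veh (2.4%). The Arc-veh cells came mainly from 2 wells, F1 (335 of 485 cells) and M2 (238 of 417), while F2 gave 0 of 260, F3 gave 3 of 19 and M3 gave 8 of 39. Among Arc-PMX wells the share ran from 5.3% in M3 to 34.4% in F1 (11 of 32 cells), and F1 lay above each Arc-veh well other than F1 and M2, so by well the 2 groups overlapped. The same wells, F1 and M2, had the highest Arc-veh values of *Ctsb* (971 and 1080 CPM), *Ctsd* (1550 and 1727 CPM), *Ctss* (1506 and 2317 CPM) and *Ctsl* (327 and 423 CPM).

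Whether PMX205 changed lysosomal transcripts in Arc mice was asked by comparing Arc-PMX with Arc-veh. In SN microglia it gave no called member of 16 and no called gene of 2203 (0%) by edgeR or by DESeq2, with 42 genes and 0 members at an unadjusted p under 0.05. Values stayed near 0: -0.15 ± 0.23 for *Ctsb*, -0.23 ± 0.23 for *Ctsd*, -0.00 ± 0.21 for *Lamp2* and -0.03 ± 0.14 for *Lgmn* (log2, SE). The lowest was *Ctsz* at -0.56 ± 0.31 and the highest *Psap* at 0.20.

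In SC microglia all 7 tested members had a lower fitted level in Arc-PMX than in Arc-veh, and none passed the test. The low-count filter could admit a gene on its Arc-veh wells alone, as for *Ctsz*, so that count was not independent of the groups. *Ctsz* was at 126, 361 and 421 CPM in Arc-veh and 0, 138 and 217 CPM in Arc-PMX. *Ctss* was at 384, 842 and 2317 CPM in Arc-veh and 432, 532 and 794 CPM in Arc-PMX. *Ctsb* was at 300, 437 and 1080 CPM in Arc-veh and 166, 374 and 470 CPM in Arc-PMX. The groups overlapped for each gene, and for *Ctsb* the highest Arc-PMX well lay above Arc-veh F2, F3 and M3 and below F1 and M2. The log2 fold changes were -1.29 ± 0.36 (SE, adjusted p = 0.162) for *Ctsz*, -1.16 ± 0.32 (adjusted p = 0.162) for *Ctss*, -1.13 ± 0.33 (adjusted p = 0.19) for *Ctsb* and -0.98 ± 0.35 (adjusted p = 0.416) for *Ctsd*. The median over the 7 members was -0.98, beside -0.05 over 899 genes. An unadjusted p under 0.05 was reached by 4 of the 7 members and 67 of the 899 genes, and 0 genes (0%) were called by edgeR or DESeq2.

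That comparison turned on single wells and on the filter. Without Arc-veh F2, 14 genes were called (1.64%), among them *Ctss* (-1.39, adjusted p = 0.0102), *Ctsz* (-1.50, adjusted p = 0.0134) and *Ctsb* (-1.34, adjusted p = 0.0151). Without Arc-veh F1, *Ctsb* was at -0.87 (adjusted p = 0.972), and without M2 at -0.67 (adjusted p = 0.996), with 0 members called in either. WT-PMX M3 is in neither group compared, but without it the low-count filter let in more genes, 1077 against 899, with *Ctsl* among them. *Ctsl* was then the 1 gene called (-2.62, adjusted p = 0.0383), so that call came with the filter and not with a change in the compared wells. With all wells *Ctsl* did not pass the low-count filter: it was at 0, 194 and 423 CPM in Arc-veh and at 0, 36.0 and 108 CPM in Arc-PMX. With no filter it fell by 2.72 (adjusted p = 1.78e-07) beside *Cd68* (-2.13, adjusted p = 0.0037), *Cd63* (-1.83, adjusted p = 0.0037) and the cholesterol carrier *Npc2* (-1.55, adjusted p = 0.0151), when 35 of 17496 genes were called (0.2%). Of the 390 Arc-veh transcripts of *Ctsl*, F1 gave 242 and M2 gave 126. In unfiltered fits that each left out 1 well of the 2 groups, chosen after seeing the data, *Ctsl* was at -2.16 (adjusted p = 0.0218, 0.0612% of genes called) without F1 and at -2.14 (adjusted p = 0.0092, 0.0641%) without M2, and the others of these 4 genes lost their calls. Without both F1 and M2, *Ctsl* was at -0.87 (adjusted p = 0.875) and 0 members were called. *Cd68*, *Cd63* and *Npc2* also lost their calls without Arc-PMX M1, *Cd68* without Arc-PMX F3 and *Npc2* without Arc-PMX F2 or M2. In the other direction, 7 members were called without Arc-veh F2 (0.374% of genes), without F3 (0.298%) or without M3 (0.223%). *Cd68* was at 48.6, 107 and 180 CPM in Arc-veh and 0, 32.2 and 93.8 CPM in Arc-PMX. Transcripts linked to ribosomal RNA summed to 54784, 97234 and 153526 CPM in Arc-PMX, below the top Arc-veh wells.

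**Figure D4:**
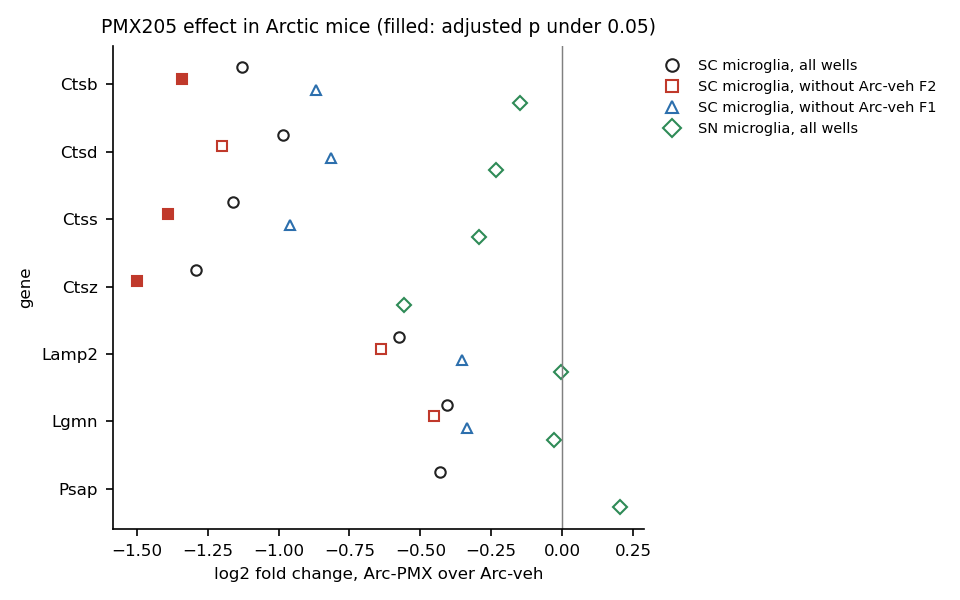
Log2 fold change of Arc-PMX over Arc-veh for the tested genes in SC microglia with all wells, without Arc-veh F2 and without Arc-veh F1. SN microglia are shown with all wells. Filled points have an adjusted p under 0.05 (edgeR), and no error bars are drawn. Points are filled only for SC microglia without F2 (*Ctsb*, *Ctss* and *Ctsz*), and the SN values lie between -0.56 and 0.20.

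In WT mice, PMX205 moved no member past the threshold in either preparation (0 of 2203 and 0 of 899 genes, 0%, by edgeR or DESeq2, with 127 and 79 genes at an unadjusted p under 0.05). The test of whether the PMX205 effect differed between Arc and WT also called 0 genes in both (113 and 87 at an unadjusted p under 0.05), so no member was shown to respond differently by genotype.

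In SN astrocytes, vehicle-treated Arc mice had higher *Lamp2*, *Ctsb* and *Lgmn* than WT mice. *Lamp2* was at 66.5, 108 and 121 CPM in WT-veh and 145, 185 and 224 CPM in Arc-veh (6 wells each), with no overlap (log2 0.70 ± 0.17 SE, 1.63-fold, adjusted p = 0.00338). *Ctsb* was at 9.90, 27.1 and 41.2 CPM in WT-veh and 40.5, 59.5 and 95.6 CPM in Arc-veh (log2 1.01 ± 0.26, 2.01-fold, adjusted p = 0.00513). *Lgmn* (chr12:102394084-102439813) was at 9.90, 22.3 and 46.8 CPM in WT-veh and 46.6, 51.9 and 57.7 CPM in Arc-veh (log2 0.81 ± 0.27, 1.75-fold, adjusted p = 0.0442). For *Ctsb* and *Lgmn* the highest WT-veh well just exceeded the lowest Arc-veh well. The 3 called of 19 tested members (15.8%) stood beside 906 of 7311 genes (12.4%), with a median log2 fold change of 0.28 over the 19 and 0.01 over all genes tested. *Ctsd* was at 4.26, 11.2 and 24.2 CPM in WT-veh and 3.68, 16.6 and 40.3 CPM in Arc-veh (log2 1.04 ± 0.47, adjusted p = 0.174).

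Under PMX205 the called astrocyte gene was *Npc1*, and it was lower in Arc. It was at 63.1, 78.7 and 101 CPM in WT-PMX and at 32.2, 42.1 and 60.3 CPM in Arc-PMX, with no overlap, and fell by 0.81 ± 0.18 (log2, SE, adjusted p = 0.00166). Under vehicle *Npc1* was at 42.3, 64.9 and 79.2 CPM in WT and 36.9, 59.8 and 66.9 CPM in Arc (log2 -0.24, adjusted p = 0.537). That 1 of 19 members stood beside 11.2% of all 7311 genes. *Ctsb* was at 17.1, 36.7 and 52.3 CPM in WT-PMX and 36.0, 44.5 and 67.4 CPM in Arc-PMX (log2 0.42, adjusted p = 0.325). *Lamp2* had 0.37 (adjusted p = 0.17) and *Lgmn* 0.43 (adjusted p = 0.349). No member was called between Arc-PMX and Arc-veh or between WT-PMX and WT-veh (0.0137% and 0% of genes called by edgeR, 0 by DESeq2, with 141 and 316 genes at an unadjusted p under 0.05). In the WT pair 17 of the 19 members were above 0, with a median log2 difference of 0.27 (0.00 over all genes), beside 0.28 in the vehicle pair, which shares the WT-veh wells. The PMX205 effect in Arc less that in WT was below 0 for 16 of 19 (median -0.37, beside 0.00 over all genes), with 0 of them called. That contrast subtracts the WT pair, so it rests partly on the same wells. The median over the members in the Arc pair was -0.08.

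Averaged over both treatments (the added contrast), *Lamp2* was higher in Arc astrocytes by 0.53 ± 0.12 (log2, SE, adjusted p = 0.000645), *Ctsb* by 0.71 ± 0.18 (adjusted p = 0.0021) and *Lgmn* by 0.62 ± 0.19 (adjusted p = 0.013), while *Npc1* fell by 0.53 ± 0.13 (adjusted p = 0.00319), beside 19.8% of 7311 genes. Microglial markers in the astrocyte sums were at 48.3, 58.9 and 76.5 CPM in WT-veh and 41.1, 59.3 and 73.7 CPM in Arc-veh, and *Ctss*, at 514 CPM in microglia, had 1 and 2 transcripts in those groups. *Lgmn* lost its vehicle-pair call in 10 of the 24 fits that each left out 1 well (adjusted p up to 0.115), *Lamp2* and *Ctsb* kept theirs in all 24, and *Npc1* kept its call of the PMX205 pair in all 24.

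**Figure D5:**
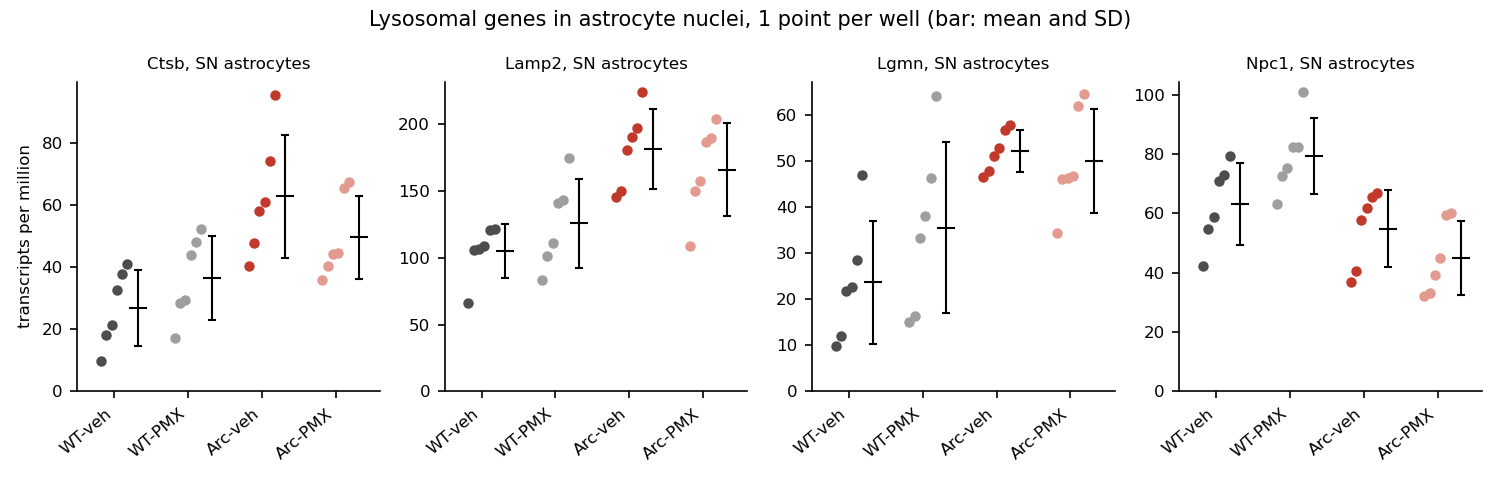
Level (CPM, linear axis from 0) of *Ctsb*, *Lamp2*, *Lgmn* and *Npc1* in every well of SN astrocytes for the 4 groups; points are wells, bars are the mean and SD. *Lamp2* in Arc-veh lies at 145 to 224 CPM above all WT-veh wells, and *Npc1* in Arc-PMX at 32.2 to 60.3 CPM below all WT-PMX wells.

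Microglia and astrocytes were then compared directly, as the difference between their genotype effects averaged over both treatments, also added after the data had been seen. Over all 7929 genes in that fit the median difference was 0.31 (log2) and 6.73% were called. Of 28 members tested, *Npc1* (1.74 ± 0.43, adjusted p = 0.00267), *Ctsb* (1.29 ± 0.32, adjusted p = 0.00329), *Glb1*, the lysosomal beta-galactosidase (1.44 ± 0.46, adjusted p = 0.0342), and *Ctsa*, the carboxypeptidase that protects it (1.37 ± 0.40, adjusted p = 0.019), had the more positive genotype effect in microglia. *Npc1* and *Glb1* had not passed the low-count filter in SN microglia alone, where the WT-veh wells held 4 and 8 of their transcripts and the WT-PMX wells 10 and 4, and they entered this fit through the deeper astrocyte sums, so their differences rest on few WT microglial transcripts. *Ctsa* also had few, 8 in the WT-veh and 15 in the WT-PMX wells. *Lgmn* had the more negative one (-0.83 ± 0.21, adjusted p = 0.00393). Within the PMX205 pair *Ctsb* (1.45, adjusted p = 0.0297) and *Npc1* (1.66, adjusted p = 0.0498) passed of 28 members, beside 248 of all 7929 genes. Within the vehicle pair 0 of 28 members passed by edgeR, beside 179 of 7929 genes. There 5 members and 1020 genes reached an unadjusted p under 0.05, and *Lgmn* was the member nearest the threshold (adjusted p = 0.0599). DESeq2 was not run on this difference.

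No member passed between genotypes in oligodendrocytes, OPCs or neurons, and the smaller types were not tested. In oligodendrocytes 12 members were tested beside 2.65% (vehicle) and 1.72% (PMX205) of 4645 genes called between genotypes, and *Ctsb* had the highest value (log2 0.82 ± 0.36 under vehicle, adjusted p = 0.32). Between Arc-PMX and Arc-veh the called share was 0.0215% in oligodendrocytes and 0.0325% in OPCs, with 0 members in either. In OPCs 4 members were tested beside 1.14% and 1.04% of 3079 genes. Neurons, with 27506 nuclei the deepest type, had 27 members tested beside 0.0663% and 0.0133% of 15091 genes, and the largest vehicle-pair value was 0.58 for *Ctsd* (adjusted p = 0.454). Members at an unadjusted p under 0.05 in the vehicle pair numbered 1, 1 and 2 in these types, and DESeq2 called 0 members in each. Over all genes 534 of 4645, 271 of 3079 and 1180 of 15091 reached that unadjusted level.

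Whole cells and nuclei of microglia were set side by side for the 5 members tested in both, with group and sex in the fit. *Ctsd* (0.86 ± 0.19 log2, SE, adjusted p = 0.000257) and *Ctss* (0.70 ± 0.17, adjusted p = 0.000877) were higher in whole cells, *Lgmn* fell by 0.35 ± 0.09 (adjusted p = 0.00165), and *Ctsb* had 0.45 (adjusted p = 0.0584) and *Lamp2* -0.13. Without the SC well WT-veh F2, also chosen after seeing the data, the same 3 members passed, with 0.84 for *Ctsd*, 0.69 for *Ctss* and -0.32 for *Lgmn*. *Ctsb* then had 0.42 (adjusted p = 0.0845) and *Lamp2* -0.16, beside 44.7% of 1053 genes called. Of all 1092 genes tested, 44.8% differed between the preparations, which differ in isolation as well as in compartment.

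Other genes of the lysosome were followed from lists that do not contain the members, and their counts stand beside the shares called over all genes, 11.6% (vehicle) and 11.8% (PMX205) in SN microglia and 3.11% in SC microglia of the vehicle pair. In SN microglia of the vehicle pair, 0 of 9 tested other hydrolases, 0 of 4 V-ATPase subunits (the proton pump that acidifies the organelle), 0 of 7 genes for sorting hydrolases to the lysosome and 0 of 1 cathepsin inhibitors passed by edgeR or DESeq2, with 2, 2, 1 and 1 at an unadjusted p under 0.05. Over all genes 502 of 2203 reached that unadjusted level. Membrane proteins gave 2 higher of 7, *Gpnmb* (7.02, adjusted p = 0.0293) and *Cd9* (1.75, adjusted p = 0.00053), both also counted among plaque-associated genes. Among 9 TFE factors and MTORC1 genes 2 were higher, *Mitf* (0.73, adjusted p = 0.00516), a relative of *Tfeb*, and *Fnip2* (1.59, adjusted p = 0.000814), a partner of folliculin in MTORC1 signalling. *Ulk2*, a kinase that starts autophagy, fell by 0.65 (adjusted p = 0.0442), the single one of 3 autophagy genes to pass. In the same wells 10 of 11 tested plaque-associated genes were higher (median log2 fold change 3.97) and 4 of 7 tested homeostatic microglial genes lower. Under PMX205, 3 of 9 TFE and MTORC1 genes, 1 of 1 cathepsin inhibitors, 1 of 7 sorting genes, 1 of 3 autophagy genes and 2 of 7 membrane proteins passed, and 0 of 9 other hydrolases and 0 of 4 V-ATPase subunits did by edgeR or DESeq2 (1 and 0 at an unadjusted p under 0.05, beside 500 of 2203 genes). *Mitf* (1.15, adjusted p = 2.63e-05), *Fnip2* (1.82, adjusted p = 6.03e-05) and *Plekhm2* (1.48, adjusted p = 0.00402), which couples lysosomes to kinesin, were higher, and *Cst3*, the secreted inhibitor of cysteine cathepsins, fell by 2.17 (adjusted p = 0.00142). *Gnptab*, which tags hydrolases with mannose 6-phosphate, was higher by 1.69 (adjusted p = 0.0267), as were *Atg7* (1.16, adjusted p = 0.0447) of the autophagy list and again *Gpnmb* (7.51, adjusted p = 0.00379) and *Cd9* (1.45, adjusted p = 0.00114). In SC microglia of the vehicle pair, *Mpeg1*, a pore-forming protein of phagosomes, was the 1 of 4 tested other hydrolases and activators to pass (1.34, adjusted p = 0.0459). Without WT-veh F2 it was again the 1 of 4 (1.64, adjusted p = 0.037), beside 7.71% of all genes.

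In SN astrocytes of the vehicle pair, where 12.4% of all genes were called, 0 of 15 other hydrolases, 0 of 12 V-ATPase subunits, 0 of 21 TFE and MTORC1 genes, 0 of 2 cathepsin inhibitors and 0 of 16 autophagy genes passed by edgeR or DESeq2, with 0, 1, 2, 0 and 2 at an unadjusted p under 0.05. Over all genes 1650 of 7311 reached that unadjusted level. Membrane proteins gave *Cd9* (1.71, adjusted p = 5.92e-06) and *Gpnmb* (1.55, adjusted p = 0.000835) higher and *Abcb9* (-0.74, adjusted p = 0.0266) and *Ostm1* (-0.61, adjusted p = 0.0116) lower of 18. The sorting gene *Ap3b1*, an adaptor subunit that routes membrane proteins to lysosomes, fell by 0.41 (adjusted p = 0.0338).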

How the data were processed

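Hippocampal cells and nuclei were barcoded by split-pool RNA-seq (Parse Biosciences), and 7 sublibraries each mixed all 48 first-round wells, so the well and not the sublibrary was the replicate, with its group from the deposited sample sheet. The authors aligned reads to mm10 with the split-pipe pipeline and deposited raw transcript counts per gene and barcode, unnormalized. The study states that a wild-type sample was left out because its expression matched Arc, without naming the well, and no well was relabelled or left out for that reason here. The study's cell filters were applied to the 1516119 barcodes (over 300 and under 50000 transcripts, over 300 genes and under 10% mitochondrial transcripts for cells, over 400 genes and under 1% for nuclei). They left 3831 cells and 45138 nuclei, of which 8 cells and 1252 nuclei had a Scrublet score above 0.25 and were removed after clustering as doublets. Of all barcode names, 4216 occurred in more than 1 sublibrary and were kept as separate cells. Cells and nuclei were clustered apart without the 29 genes (scanpy 1.11.5, leidenalg 0.10.2, 2000 variable genes, 30 components, 15 neighbours, resolution 1 for cells and 1.5 for nuclei), and clusters were named from marker lists that exclude them. Of 14 SC and 43 SN clusters, 11 stayed unnamed. A cluster name rebuilt this way may differ from the study's own.

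Counts were summed per well and type and tested with the edgeR 4.0.16 quasi-likelihood test (TMM scaling, low-count filter by group, sex as covariate, 1 fit for the 4 groups), with Benjamini-Hochberg adjustment over all genes tested and a call at an adjusted p under 0.05. Well and type were fitted for contrasts between types. DESeq2 1.42.0, another scaling, no filter, a stricter cell filter, no sex term, fits of only the groups compared, kept doublets, naming by marker score, removal of transcripts linked to ribosomal RNA, a replicate block and leaving out each well were tried as alternatives. The steps were tested on simulated counts. Members, lists and tests were chosen with earlier results of these data known. All 29 members are described, with values where a result turns on them, and of each other list at most the 6 largest changes that passed are named. Floors and totals cover counting error only. CPM levels use all transcripts of a type, whereas log2 fold changes use TMM-scaled totals.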

Additional observations from a re-analysis of the deposited data

Results flagged for a closer look

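Of 44 groups of 4 to 10 wells examined for single values far from the rest, 3 had one, and chance alone gives about 1 such group in 20. *Ctsd* in SC microglia was at 1216.6 CPM in WT-veh F3, the highest of the 5 WT-veh wells, *Ctsz* in SC microglia was at 125.8 CPM in Arc-veh F2, the lowest of the 5 Arc-veh wells, and *Lamp2* in SN astrocytes was at 66.5 CPM in WT-veh M3, the lowest of the 6 WT-veh wells.

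The Arc effect on 5 members differed between SN microglia and SN astrocytes, by a test of that difference averaged over both treatments. That test was added after the data had been seen. The log2 differences, microglia minus astrocytes, were 1.37 for *Ctsa*, 1.29 for *Ctsb*, 1.44 for *Glb1*, -0.83 for *Lgmn* and 1.74 for *Npc1*, where the median over all 7929 genes was 0.31. In that averaged test 6.73% of all genes were called. Within the PMX205 pair the difference passed for *Ctsb* (1.45) and *Npc1* (1.66), beside 248 of 7929 genes. Within the vehicle pair it passed for 0 of 28 members, beside 179 of 7929 genes. *Npc1* and *Glb1* had too few transcripts in the SN microglia for a test within that type alone. *Ctsa* rested on 8 WT-veh and 15 WT-PMX microglial transcripts. No genotype effect of *Ctsa* or *Glb1* was called within either type alone, and no cause of these differences was tested.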

How the results depend on the processing

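Of 525 recomputed log2 fold changes of called members, 485 stayed past the threshold, 40 lost it and 0 changed direction, and 716 of 753 recomputed counts of called members stayed within 1.5 times the reported one. Many of those counts were 0 in comparisons where few or no genes were called at all. Such counts could hardly change, so the 716 is no measure of how stable the called members are. The cause of the changes was not tested, except that a looser or stricter filter changes which genes are tested.

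Each percentage below is the share of all genes called in the same fit. With no low-count filter the number of called members was 8 for SC against SN microglia (reported 3, 9.12%), 4 for SC microglia of Arc-PMX against Arc-veh (reported 0, 0.2%), 7 for SC microglia of Arc-veh against WT-veh (reported 3, 0.56%), 2 for SN microglia of Arc-PMX against WT-PMX (reported 1, 1.86%) and 1 for neurons of WT-PMX against WT-veh (*Psap*, log2 0.53, adjusted p = 0.00884, reported 0, 0.0836%). The stricter cell filter gave 2, *Ctsb* (-1.35, adjusted p = 0.0437) and *Ctsl* (-2.62, adjusted p = 0.00663), for SC Arc-PMX against Arc-veh (0.323%), 0 for SC Arc-PMX against WT-PMX (reported 1, 3.59%) and 0 for SC Arc-veh against WT-veh (0%). Naming by marker score gave 5 for SC against SN (58.7%), 3 for SC (12.2%) and 2 for SN microglia (4.94%) of Arc-PMX against WT-PMX. For SC Arc-PMX against WT-PMX, DESeq2 (14.3%), no sex term (13.7%) and a fit of the groups compared (19.1%) each gave 2, and that last fit gave 0 for SC Arc-veh against WT-veh (0.8%).

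Over all genes, the number called in SC microglia of the vehicle pair was 28 as reported, 49 by DESeq2, 98 with no filter, 101 with naming by marker score, 17 with the replicate block, 2 in a fit of the groups compared and 0 with the stricter cell filter. For SC Arc-PMX against Arc-veh it was 0 as reported, 35 with no filter and 8 with the stricter filter. For SN microglia of the PMX205 pair it was 259 as reported and 148 in a fit of the groups compared, and for neurons of the vehicle pair 10 as reported, 22 by DESeq2 and 4 in a fit of the groups compared.

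Leaving out 1 well at a time, the counts ran from 0 to 3 for SC Arc-PMX against Arc-veh (0 to 1.64%), 0 to 2 for SC Arc-PMX against WT-PMX (4.15 to 13.3%), 0 to 3 for SC Arc-veh against WT-veh (0.339 to 7.71%), 1 to 2 for SN microglia of Arc-PMX against WT-PMX (9.01 to 12.7%) and 1 to 4 for SN microglia of Arc-veh against WT-veh (6.09 to 12.6%). They ran from 2 to 3 for astrocytes of the vehicle pair (10.1 to 13%) and stayed at 1 for those of the PMX205 pair (9.27 to 11.2%). Without WT-veh F2 the count for oligodendrocytes of the vehicle pair was 1 (otherwise 0), with 1.87% of genes called. Which nuclei fell in the oligodendrocyte and OPC clusters also moved with the rounding of the clustering, so those values are less firm than the microglial and astrocyte ones.

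The wells share sex and a replicate number across groups, but same-numbered wells did not deviate together (correlations of -0.1 to 0.27 over 28 pairs in SN microglia, -0.24 to 0.24 over 22 pairs in SC microglia and -0.15 to 0.28 over 36 pairs in SN astrocytes), so the numbers were not taken as pairs. With a replicate block the count for SN microglia of Arc-PMX against WT-PMX was 2 (11.5%), as *Lgmn* passed (-0.49, adjusted p = 0.0488), and *Ctss* lost its call in SC microglia of the vehicle pair. The 3 usable WT-PMX wells of SC microglia and the 6370 transcripts of the shallowest SC well limit what those comparisons can show.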
